A study of Homo sapiens with 6 samples.

Results

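The 10 genes described here encode the receptors that let a cell hear interferon and the proteins that let it sense misplaced DNA: IFNAR1, IFNAR2, IFNGR1, IFNGR2, JAK1, TYK2, TBK1, IRF3, CGAS and STING1. They were taken by gene symbol from the deposited read count table, where all 10 have a row among 39323 genes, by a rule that uses symbols and no measured value. Polyadenylated RNA was sequenced from the line MDA-MB-231, of human triple-negative breast cancer, after transfection with a small interfering RNA (siRNA) duplex against SF3B6 (siSF3B6, 3 libraries) or with a non-targeting duplex (siNC, 3 libraries). SF3B6 is a small subunit of the SF3b complex of the U2 snRNP, which recognises the branch point of introns, and the series asks what SF3B6 does in these cells. Both groups thus received a synthetic double-stranded RNA and a lipid transfection reagent; a single targeting duplex and a single cell line were used, and no untransfected cells are part of the comparison. Neither duplex amount nor time after transfection is stated in the labels.

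Type I interferons bind a receptor made of IFNAR1 and IFNAR2, and interferon gamma binds a receptor made of IFNGR1 and IFNGR2. The kinases TYK2 and JAK1 sit on the intracellular tails of the type I receptor, and JAK1 with JAK2 on those of the gamma receptor; once active they phosphorylate STAT proteins, which switch on interferon-stimulated genes. In the other arm, the enzyme cGAS (gene CGAS) binds DNA in the cytosol and makes the messenger cGAMP, which activates STING (gene STING1) on the endoplasmic reticulum. STING then recruits the kinase TBK1, which phosphorylates the transcription factor IRF3, and IRF3 turns on interferon and chemokine genes.

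The 2 duplexes are shown because they are the treatment. Each guide strand is given 5′ to 3′ without its overhang, as the reverse complement of the sense strand that the labels state, with the seed (bases 2 to 8) in capitals.
siSF3B6 guide: aAGCUUCAacuguuccucc
siNC guide: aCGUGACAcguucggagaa
A site matching the siSF3B6 seed was found in the 3′ UTR of 0 of the 10 genes, against 14.6% of the 18406 genes with an annotated 3′ UTR. For the siNC seed it was likewise 0 of 10, against 3.01% of those genes. Matches were searched in the longest coding transcript of each gene in GENCODE release 29.

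SF3B6 itself had 22.5, 25.0 and 21.3 CPM in the siSF3B6 libraries and 86.4, 80.5 and 102 CPM in the siNC libraries, where CPM are counts scaled to a common library size with TMM factors. Libraries held 30684131 to 38546037 gene reads in siSF3B6 and 28504091 to 33754386 in siNC. Mitochondrially encoded genes took 10.6% to 11.8% of reads in siSF3B6 and 3.38% to 9.07% in siNC, with siNC replicate 3 the highest of its group. Replicates 1 and 2 of each group were much closer to each other (mean chi-square per gene 2.33 in siSF3B6 and 3.74 in siNC) than either was to replicate 3 (18.1 to 22.2 in siSF3B6 and 60.2 to 74.9 in siNC). By the same measure siNC replicate 3 was closer to siSF3B6 replicates 1 and 2 (42.0 and 42.9) than to the other siNC libraries. Genes with only 1 to 9 reads numbered 7877, 8325 and 7890 in siSF3B6, against 13952, 14956 and 7731 in siNC, so that siNC replicates 1 and 2 stood apart from the other 4 libraries; the part of this in the changes below was not tested. Replicates are called biological in the series' design, but separate cultures are named nowhere, and p-values therefore reflect only how these libraries vary, which may be technical. The 5 markers listed for this line (VIM, CD44, KRT18, KRT8 and AXL) summed to 5996 to 6539 CPM in siSF3B6 and 5761 to 6238 CPM in siNC. Of the 6 luminal breast markers, the hormone receptor ESR1 had at most 2 reads in a siSF3B6 library and 4 in a siNC library. PGR had 11 reads or fewer in each library. Others of that list were expressed: in siSF3B6 and siNC, ERBB2 averaged 56.6 and 59.8 CPM, EPCAM 22.8 and 10.7, and GATA3 14.2 and 10.0. The 10 listed markers of blood and stromal cells summed to 27.0 to 30.8 CPM in siSF3B6 and 28.6 to 32.7 CPM in siNC. Among them CD14 averaged 12.6 CPM in siSF3B6 and 13.5 CPM in siNC, and PECAM1 7.23 and 9.18 CPM. CD3E had 6 reads or fewer in each library. ERBB2, PGR and CD14 were named after their values were seen.

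After SF3B6 knockdown, 4 of the 10 genes rose, 3 fell and 3 did not pass the test (edgeR quasi-likelihood test, Benjamini-Hochberg adjusted p under 0.05 over all 16869 genes tested). TBK1, IFNGR1, IFNAR1 and IFNGR2 rose, by 1.35-fold to 1.76-fold. IRF3, STING1 and CGAS fell, to 65.3%, 78.8% and 86.6% of the siNC level. JAK1, TYK2 and IFNAR2 did not pass. Both receptor chains for interferon gamma were thus higher, while the DNA sensor, its adaptor and the transcription factor at the end of the route were lower and the kinase between them was higher. Changes of this kind were common in the comparison: 40.8% of all tested genes were called, 20.8% higher and 20.0% lower, so the share of these genes called is described and not read as particular to them. The median log2 fold change was 0.058 over the 10 genes and 0.001 over all tested genes. The groups did not overlap for 8 of the 10 genes, against 52.1% of all tested genes. Because siNC replicate 3 stands apart from the other siNC libraries, it was also used as the lone control: 2 of the 10 genes, TBK1 and IFNGR1, then rose and 1, IRF3, fell, where 13.8% of all genes were called, 6.60% higher and 7.24% lower.

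**Figure D1:**
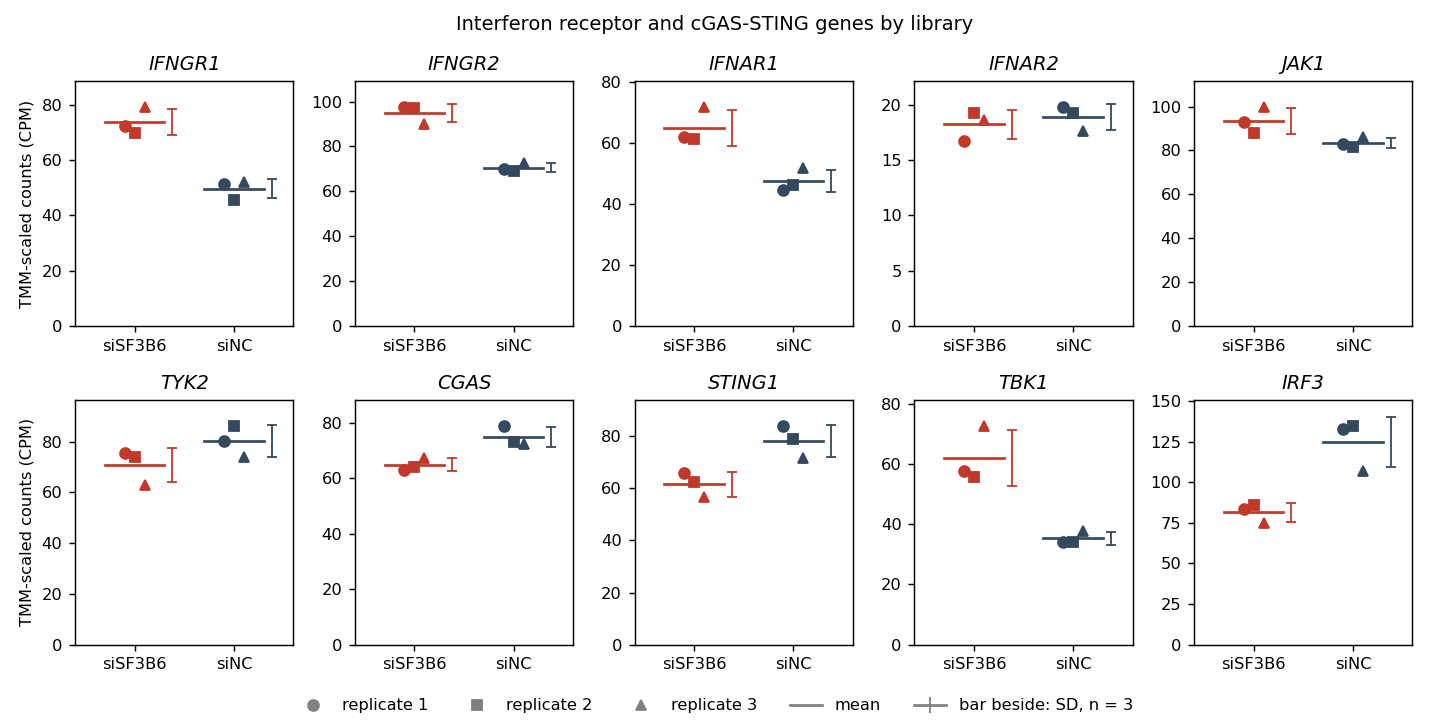
TMM-scaled counts (CPM, each axis from 0) of the 10 genes in the 3 siSF3B6 libraries (red, left) and the 3 siNC libraries (blue, right). Symbols mark replicates, horizontal lines the mean and the bars beside them the SD (n = 3); TBK1 lies between 55.6 and 72.7 CPM in siSF3B6 and between 34.0 and 37.7 CPM in siNC, while the IFNAR2 groups overlap.

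IFNGR1 encodes the chain that binds interferon gamma. It had 72.2, 70.0 and 79.1 CPM in siSF3B6 replicates 1 to 3, against 51.3, 45.7 and 52.1 CPM in siNC replicates 1 to 3. Every siSF3B6 library lay above every siNC library, and the log2 fold change came to 0.57 (SE 0.0858, n = 3 per group, edgeR adjusted p = 0.000198). On GRCh38, the build of all gene positions here, IFNGR1 (ENSG00000027697.15) spans 137197484 to 137219449 of chromosome 6, minus strand.

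IFNGR2 encodes the accessory chain, which brings JAK2 to the complex. Its values were 97.5, 97.2 and 90.2 CPM in siSF3B6, against 69.8, 69.0 and 72.8 CPM in siNC, again without overlap. Its log2 fold change was 0.43 (SE 0.0762, n = 3 per group, edgeR adjusted p = 0.000648). IFNGR2 (ENSG00000159128.15, chromosome 21 at 33402896 to 33479348, plus strand) shares 12.8% of its exonic bases with TMEM50B on the opposite strand, and TMEM50B averaged 21.9 ± 1.29 CPM in siSF3B6 and 21.9 ± 0.0855 CPM in siNC (SD, n = 3 each). If siNC replicate 3 was the lone control, the IFNGR2 call was lost (0.37, adjusted p = 0.0693).

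IFNAR1, the signalling chain to which TYK2 binds, had 61.8, 61.4 and 71.7 CPM in siSF3B6, against 44.7, 46.1 and 51.7 CPM in siNC. Replicate 3 was the highest library of each group, and the groups did not overlap. The log2 fold change was 0.45 (SE 0.0916, n = 3 per group, edgeR adjusted p = 0.00161), or 0.31 (adjusted p = 0.152) against siNC replicate 3 alone. IFNAR1 (ENSG00000142166.13) lies on chromosome 21 at 33324477 to 33359862, plus strand.

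IFNAR2, the chain with the higher affinity for type I interferons, had 16.7, 19.3 and 18.7 CPM in siSF3B6, against 19.8, 19.3 and 17.6 CPM in siNC. The groups overlapped, and the log2 fold change of -0.05 (SE 0.0949, adjusted p = 0.714) did not pass the test. This value is uncertain for a reason of annotation. IFNAR2 (ENSG00000159110.21, chromosome 21 at 33229901 to 33265675, plus strand) shares 44.2% of its exonic bases with AP000295.9, a protein-coding gene model that runs on the same strand across IFNAR2 and its neighbour IL10RB, and 39.1% with IL10RB-DT on the opposite strand. AP000295.9 itself averaged 34.4 ± 1.51 CPM in siSF3B6 and 32.7 ± 2.53 CPM in siNC, while IL10RB, a chain of the interleukin-10 and interferon lambda receptors, averaged 0.539 ± 0.130 CPM in siSF3B6 and 0.347 ± 0.0442 CPM in siNC (SD, n = 3 each). Reads of the shared exons cannot be divided among these models here. The log2 fold change of AP000295.9 was 0.076 (SE 0.0880, adjusted p = 0.518).

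Neither receptor kinase among the 10 genes passed the test. JAK1 had 92.8, 88.1 and 99.7 CPM in siSF3B6, against 82.8, 81.6 and 85.9 CPM in siNC, without overlap, yet its log2 fold change of 0.16 (SE 0.0783) had an adjusted p of 0.109 in the edgeR test. TYK2 had 75.5, 73.9 and 62.9 CPM in siSF3B6, against 80.3, 86.2 and 73.8 CPM in siNC. Its groups overlapped narrowly, because siNC replicate 3 lay just under siSF3B6 replicates 1 and 2, and its log2 fold change was -0.18 (SE 0.0922, adjusted p = 0.137). JAK1 passed with the libraries numbered 1 and 2 alone (0.14, adjusted p = 0.00813), as did TYK2 (-0.16, adjusted p = 0.0043). Those 4 libraries gave calls for 55.6% of all genes tested in them, 28.6% higher and 27.0% lower. TYK2 also passed when libraries were scaled by size alone (-0.29, adjusted p = 0.0306), a scaling that moved the median of all genes by -0.10. JAK1 (ENSG00000162434.13) lies on chromosome 1 at 64833229 to 64966504, minus strand, and TYK2 (ENSG00000105397.14) on chromosome 19 at 10350529 to 10380676, minus strand.

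CGAS encodes the DNA sensor. Its values were 63.1, 63.9 and 67.5 CPM in siSF3B6, against 79.0, 73.2 and 72.4 CPM in siNC. The groups did not overlap, but the gap between the closest libraries was smaller than the range of the siNC libraries. Its log2 fold change, -0.21 (SE 0.0779, n = 3 per group, edgeR adjusted p = 0.0472), was close to the threshold. Its call was lost on leaving out siSF3B6 replicate 1 (-0.19, adjusted p = 0.157) or 2 (-0.19, 0.148) or siNC replicate 1 (-0.17, 0.21) or 2 (-0.23, 0.0986), against siNC replicate 3 alone (-0.17, 0.383), without the low-count filter (-0.21, 0.118) and with robust dispersion (-0.21, 0.0505). CGAS (ENSG00000164430.17) lies on chromosome 6 at 73413515 to 73452276, minus strand.

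STING1 encodes the cGAMP receptor of the endoplasmic reticulum. It had 66.1, 62.4 and 56.5 CPM in siSF3B6, against 84.1, 79.0 and 71.7 CPM in siNC, and no siSF3B6 library reached the lowest siNC library. STING1's log2 fold change was -0.34 (SE 0.0890, n = 3 per group, edgeR adjusted p = 0.0073). In same-numbered libraries, which share only a number and are not known to be pairs, the log2 ratio of siSF3B6 to siNC was -0.35, -0.34 and -0.34 for numbers 1 to 3. The other genes were less even, from 0.47, 0.41 and 0.47 in IFNAR1 to -0.24, 0.0015 and 0.086 in IFNAR2, and CGAS had -0.32, -0.20 and -0.10. Without siNC replicate 1 the adjusted p was 0.0503 (-0.29), and against siNC replicate 3 alone it was 0.27 (-0.23). STING1 (ENSG00000184584.13) lies on chromosome 5 at 139475534 to 139482935, minus strand.

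TBK1, the kinase that STING recruits and that phosphorylates IRF3, changed most. It had 57.7, 55.6 and 72.7 CPM in siSF3B6, against 34.2, 34.0 and 37.7 CPM in siNC. Replicate 3 was the highest library of both groups, and the lowest siSF3B6 library was still well above the highest siNC library. The log2 fold change was 0.81 (SE 0.105, n = 3 per group, edgeR adjusted p = 6.58e-05), larger in size than that of 91.6% of all tested genes. Leaving out single libraries gave 0.68 to 0.89, and siNC replicate 3 as sole control gave 0.71 (adjusted p = 0.0144). TBK1 (ENSG00000183735.11, chromosome 12 at 64451880 to 64502108, plus strand) shares 14.7% of its exonic bases with RP11-114F3.4 on the opposite strand, which had 4 reads or fewer in each siSF3B6 library and 7 or fewer in each siNC library.

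IRF3 is the transcription factor that TBK1 activates. It had 83.3, 86.2 and 75.0 CPM in siSF3B6, against 133, 135 and 107 CPM in siNC. Replicate 3 was the lowest library of each group. The groups did not overlap, but the gap between the closest libraries was smaller than the range of the siNC libraries. IRF3's log2 fold change was -0.62 (SE 0.0977, n = 3 per group, edgeR adjusted p = 0.00029), or -0.41 (adjusted p = 0.0491) against siNC replicate 3 alone. IRF3 (ENSG00000126456.16, chromosome 19 at 49659569 to 49665875, minus strand) shares 19.3% of its exonic bases with BCL2L12, its neighbour on the opposite strand. BCL2L12, named here after its values were seen, also fell, with 35.1, 38.8 and 32.0 CPM in siSF3B6 and 68.1, 69.7 and 55.7 CPM in siNC (log2 fold change -0.87, SE 0.104, adjusted p = 3.77e-05). The libraries keep strand, but whether the counting used it is not stated in the labels, and how many reads the pair shares was not tested.

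Over the 6 CPM values of a gene, an exact permutation test (two-sided) gave p = 0.1, the smallest p that 3 libraries against 3 allow, for each of the 7 called genes and for JAK1, 0.3 for TYK2 and 0.6 for IFNAR2. All 10 genes are measured in a bulk population, where a change in RNA per cell and a change in the make-up of the cells cannot be told apart.

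**Figure D2:**
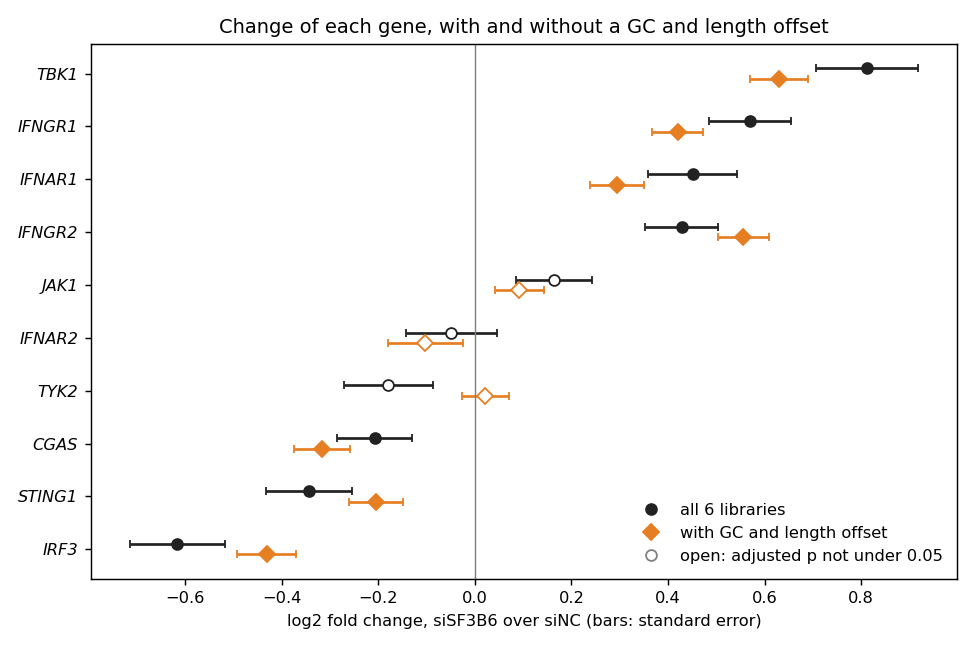
Log2 fold change of each gene, siSF3B6 over siNC, with its standard error, without (black circles) and with (orange diamonds) an offset for transcript GC content and length. Filled symbols have an adjusted p under 0.05; TBK1 is highest at 0.81 and IRF3 lowest at -0.62, and the same 7 genes are filled in both fits.

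Levels of different genes were compared per length, in the FPKM (fragments per kilobase of gene model, scaled by depth) that the authors deposited. In siSF3B6 the order of the means was IFNGR2 at 32.1 ± 1.43, IFNGR1 at 18.6 ± 1.17, IRF3 at 17.7 ± 1.29, CGAS at 12.8 ± 0.444, STING1 at 10.6 ± 0.835, TYK2 at 8.76 ± 0.858, IFNAR1 at 7.79 ± 0.690, JAK1 at 6.12 ± 0.368, TBK1 at 3.47 ± 0.520 and IFNAR2 at 3.06 ± 0.227 FPKM (SD, n = 3). Neighbours in that order whose libraries overlapped were IFNGR1 and IRF3, TYK2 and IFNAR1, and TBK1 and IFNAR2. In siNC the order was IRF3 at 28.2 ± 3.24, IFNGR2 at 24.7 ± 0.968, CGAS at 15.3 ± 0.717, STING1 at 14.0 ± 1.03, IFNGR1 at 13.0 ± 1.03, TYK2 at 10.3 ± 0.690, IFNAR1 at 5.91 ± 0.520, JAK1 at 5.66 ± 0.210, IFNAR2 at 3.29 ± 0.172 and TBK1 at 2.05 ± 0.137 FPKM (SD, n = 3). There the libraries of IRF3 and IFNGR2, of CGAS and STING1, of STING1 and IFNGR1, and of IFNAR1 and JAK1 overlapped. IFNGR1 and IFNGR2 stood above IRF3 in siSF3B6 means, while IRF3 led in siNC, and TBK1 stood above IFNAR2 in siSF3B6 means but below it in siNC. Both gamma receptor chains had more FPKM than both type I chains in every library, with the reservation on IFNAR2 given above.

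**Figure D3:**
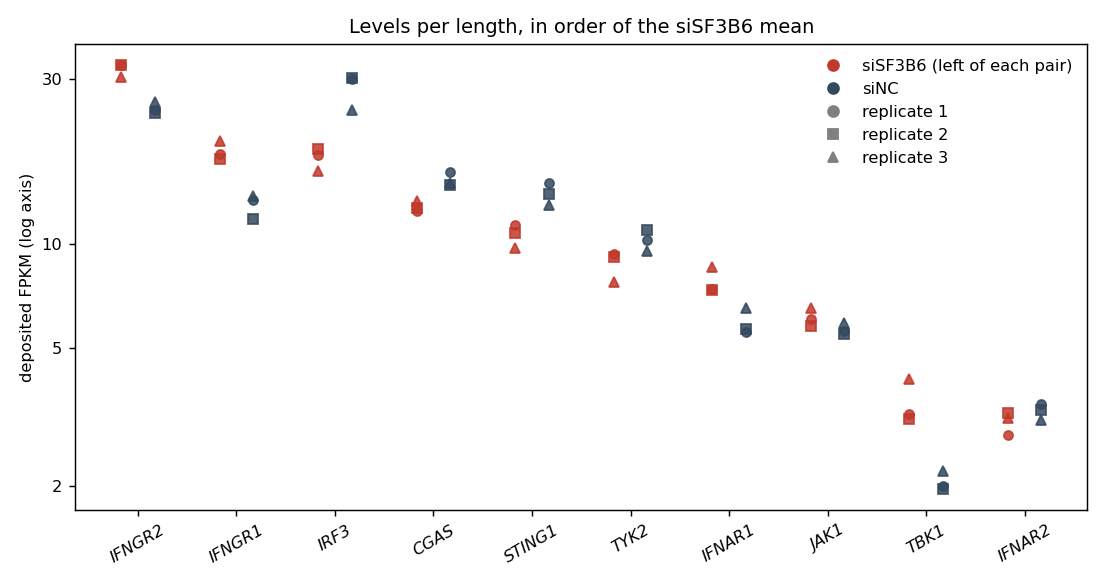
Deposited FPKM of the 10 genes on a log axis, ordered by the siSF3B6 mean, with the siSF3B6 libraries left of the siNC libraries. IFNGR2 leads in siSF3B6 at 32.1 FPKM and TBK1 is last in siNC at 2.05 FPKM.

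Ratios of paired gene products within a library do not depend on how libraries are scaled, but they keep any trend with transcript GC content. GC content was 39.3% in TBK1 and 59.0% in IRF3, and 46.2% in JAK1 and 61.3% in TYK2. With the GC and length offset described below, log2 fold changes were 0.63 for TBK1 and -0.43 for IRF3, against 0.81 and -0.62 without it. For JAK1 and TYK2 they were 0.092 and 0.022, against 0.16 and -0.18. For IFNAR1 and IFNAR2, at 42.3% and 47.0% GC, they were 0.29 and -0.10, against 0.45 and -0.05. The reservation on the shared exons of IFNAR2 given above holds for its ratio as well. The FPKM ratio of IFNAR1 to IFNAR2 was 2.64, 2.27 and 2.74 in siSF3B6, against 1.62, 1.71 and 2.10 in siNC, without overlap. That of TBK1 to IRF3 was 0.178, 0.166 and 0.250 in siSF3B6, against 0.0664, 0.0651 and 0.0905 in siNC, the largest fold between group means of the 6 ratios computed. The kinase that phosphorylates IRF3 was thus more abundant relative to its substrate at the RNA level in every siSF3B6 library. TBK1 to STING1 averaged 0.331 ± 0.0763 in siSF3B6 and 0.148 ± 0.0202 in siNC, and JAK1 to TYK2 averaged 0.706 ± 0.114 in siSF3B6 and 0.554 ± 0.0580 in siNC (SD, n = 3 each), both without overlap. For these 4 ratios an exact permutation test (two-sided) gave p = 0.1, the smallest it can give, and 0.15 after Benjamini-Hochberg adjustment over the 6. The partners IFNGR1 and IFNGR2 kept closer to each other, at a ratio of 0.581 ± 0.0638 in siSF3B6 and 0.525 ± 0.0281 in siNC, and STING1 to CGAS was 0.830 ± 0.0926 in siSF3B6 and 0.909 ± 0.0417 in siNC. Both of those ratios overlapped between groups (exact permutation p = 0.2, adjusted 0.2).

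Transcript GC content moved with the change, over these genes and over all genes. The longest GENCODE transcript is 39.3% GC in TBK1, 40.2% in IFNGR1 and 42.3% in IFNAR1, and 56.8% in STING1, 59.0% in IRF3 and 61.3% in TYK2. Among all tested genes the median log2 fold change was 0.20 for transcripts under 40% GC and -0.25 for those over 60% GC. Across the 10 genes Pearson's r between GC content and log2 fold change was -0.71 and Spearman's rho -0.78, as a description; the points are genes of the same 6 libraries. IFNGR2, at 55.0% GC, and CGAS, at 43.6%, lay on the other side of the trend: the median of the tested genes within 2 percentage points of their GC content was -0.11 for IFNGR2, against its own 0.43, and 0.12 for CGAS, against its own -0.21. For TBK1 the median of genes of like GC content was 0.19, for IFNGR1 0.18, for IFNAR1 0.15, for STING1 -0.13 and for IRF3 -0.16, each closer to 0 than the gene itself. TYK2, at -0.18, lay beside its like at -0.20. The part of GC content, and that of the mitochondrial share above, in the change of each gene was not tested beyond the offset that follows.

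With an offset fitted to each library for GC content and length, the same 4 genes were called higher and the same 3 lower, where 46.4% of all tested genes were called, 23.7% higher and 22.7% lower. The log2 fold changes were then 0.63 for TBK1, 0.56 for IFNGR2, 0.42 for IFNGR1, 0.29 for IFNAR1, -0.43 for IRF3, -0.32 for CGAS and -0.20 for STING1. CGAS moved away from the threshold (edgeR adjusted p = 0.000782), and TYK2 came to 0.022 (SE 0.0492, adjusted p = 0.746). The offset moved 3 called values by over 1.5 times: IFNAR1 and STING1 were smaller with it, and CGAS was larger.

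**Figure D4:**
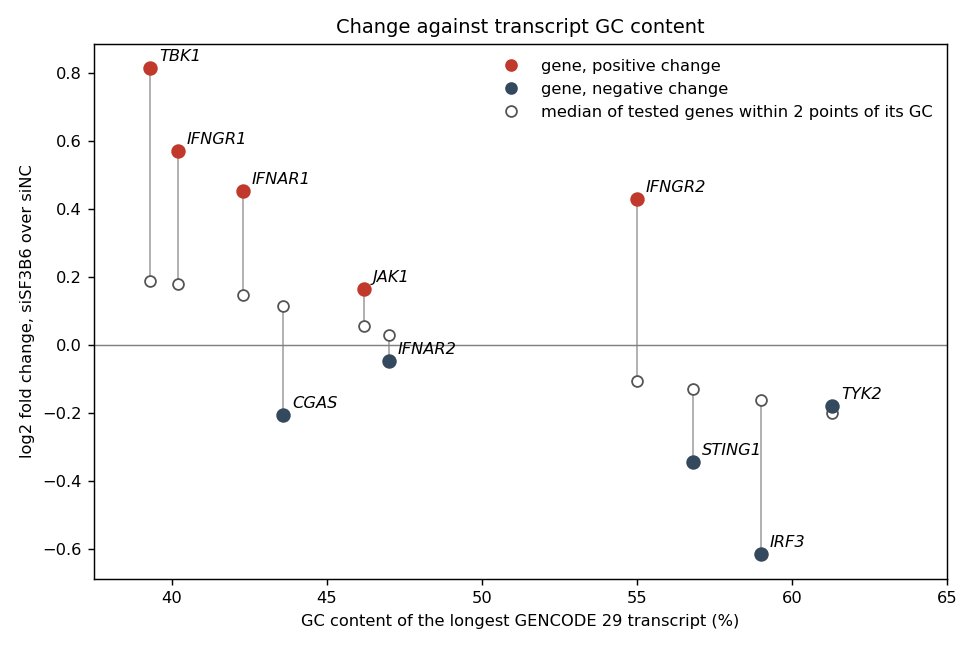
Log2 fold change of each gene (filled points) against the GC content of its longest transcript, with the median log2 fold change of all tested genes within 2 percentage points of the same GC content (open points). IFNGR2 lies above 0 where genes of like GC content lie below it, and CGAS the other way round.

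Promoter sequence, from 250 bases before to 50 after the RefSeq start of each gene on GRCh38.p14, was at hand for 6 of the genes: IFNAR1, IFNGR1, IFNGR2, JAK1, TYK2 and TBK1. The interferon-stimulated response element core (GAAA, any 2 bases, GAAA) and the gamma-activated site TTCNNNGAA, searched like all motifs here on both strands, were found in 0 of the 6, against 3.57% and 7.66% of all 35116 promoters. The ETS family motif CCGGAAGT was found in 2 of the 6, TBK1 and JAK1, against 4.14% of all promoters; the JAK1 promoter in RefSeq, at 65067697 to 65067996 of chromosome 1, lies upstream of the GENCODE gene span given above. The E2F motif form TTTCCCGC was found in IFNGR2, against 1.63% of all promoters. The windows of TBK1 and IFNGR2 are shown because both genes rose; each runs 5′ to 3′ on the strand of the gene, with the match in capitals.
TBK1, chr12:64452107-64452136, plus strand, CCGGAAGT: ggcttgcgaagCCGGAAGTgtcctgagtct
IFNGR2, chr21:33403300-33403329, plus strand, reverse complement of TTTCCCGC: cggttcccggaGCGGGAAAgtcccgcgcgg
The GC-box GGGCGG occurred in IFNGR1 and IFNGR2, against 45% of all promoters. A match is a match of letters in this window and says nothing of a factor's binding.

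Interferons themselves were barely seen. Of 21 ligand genes listed, 8 had a row in the count table and 0 passed the filter for testing. IFNB1, the type I interferon that IRF3 induces, had 0 reads in each siSF3B6 library and 0, 1 and 0 reads in siNC. A count of 0 allows up to 3 reads, which is 0.0812 to 0.102 CPM in siSF3B6 and 0.0893 to 0.0994 CPM in siNC, for counting error only. IFNG, the ligand of IFNGR1 and IFNGR2, had 0 reads in each siSF3B6 library and 1, 0 and 0 reads in siNC. IFNL1, a lambda interferon, had 4, 5 and 2 reads in siSF3B6 and 1 read in each siNC library, too few for a fold change.

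Of 12 other receptor, JAK and STAT genes, 3 rose (25.0%, against 20.8% of all tested genes) and 1 fell (8.33%, against 20.0%), with a median log2 fold change of 0.23 against 0.001 for all tested genes. IRF9, the DNA-binding subunit of the STAT complex that type I interferon activates, had only 2.62, 2.95 and 2.78 CPM in siSF3B6, against 0.898, 0.928 and 1.31 CPM in siNC (1.41, SE 0.205, adjusted p = 0.000156). STAT3 rose by 0.48 (adjusted p = 0.000197), and STAT2 had 0.13 (adjusted p = 0.188), with 90.1 ± 0.136 CPM in siSF3B6 and 82.4 ± 3.31 CPM in siNC (SD, n = 3 each). STAT5B fell by 0.26 on the log2 scale, a call lost without siSF3B6 replicate 1 (adjusted p = 0.102) or 2 (0.0934) or siNC replicate 1 (0.14) or 2 (0.0684). Under the GC and length offset 5 rose, where 23.7% of all genes did.

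Of 14 genes that restrain the receptors, 3 rose and 2 fell, 35.7% against the 40.8% of all tested genes that were called, with a median log2 fold change of 0.062. SOCS2, a feedback inhibitor of JAK-STAT signalling, fell, with 11.8, 9.88 and 11.4 CPM in siSF3B6 and 20.6, 20.5 and 20.0 CPM in siNC (-0.89, SE 0.0979, adjusted p = 2.10e-05). PIAS3, an inhibitor of STAT3, fell as well (-0.45, adjusted p = 0.000444), while the phosphatase PTPN6 rose (0.55, adjusted p = 0.00503). PIAS1 rose by 0.42, or 0.25 with the offset, with an adjusted p of 0.0501 without siNC replicate 2. The other that rose was PTPRC, a phosphatase of blood cells named after its value was seen, with 0.579, 1.38 and 1.47 CPM in siSF3B6 and 0.481, 0.696 and 0.506 CPM in siNC, groups that overlapped, and a call lost with the offset (adjusted p = 0.0684) and without siSF3B6 replicate 2 (0.105) or 3 (0.132) or siNC replicate 1 (0.0928) or 3 (0.0647). USP18 and SOCS1, the brakes most tied to interferon, did not pass. USP18 averaged 5.10 ± 0.294 CPM in siSF3B6 and 4.60 ± 0.591 CPM in siNC (0.15, edgeR adjusted p = 0.416). SOCS1 averaged 6.57 ± 1.64 CPM in siSF3B6 and 8.77 ± 0.532 CPM in siNC (SD, n = 3 each). Its groups did not overlap, and its log2 fold change of -0.41 was close to the threshold (edgeR adjusted p = 0.0530). SOCS1, at 69.1% GC, came to -0.029 with the GC and length offset (edgeR adjusted p = 0.851).

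Of 16 partners and adaptors that lead to TBK1 and IRF3, 5 rose and 5 fell, 62.5% against 40.8% of all tested genes, with a median log2 fold change of 0.13. AZI2, an adaptor of TBK1, had 69.3, 70.4 and 80.9 CPM in siSF3B6, against 46.4, 47.0 and 56.6 CPM in siNC (0.56, SE 0.0977, adjusted p = 0.000602). The ubiquitin ligase TRAF6 rose (0.66, adjusted p = 0.000106) and TRAF2 fell (-0.44, adjusted p = 0.00301). IKBKE, the closest relative of TBK1, averaged 34.4 ± 2.64 CPM in siSF3B6 and 31.8 ± 0.279 CPM in siNC (SD, n = 3 each; 0.12, adjusted p = 0.304); the GC and length offset gave it 0.28 (adjusted p = 0.00154). IRF7, the other interferon regulatory factor of this route, had 30.4, 31.0 and 19.0 CPM in siSF3B6, against 20.3, 19.4 and 18.0 CPM in siNC, so that siSF3B6 replicate 3 lay within the siNC range. Its log2 fold change was 0.48 (adjusted p = 0.0196), and the call was lost without siSF3B6 replicate 1 (0.0817) or 2 (0.0785). The offset also moved IRF7 to 0.82, TRAF2 to -0.20 and AZI2 to 0.35, each still called. IRF5 fell by 0.68 on the log2 scale, a call lost without siNC replicate 1 (adjusted p = 0.0759). The number of the 16 that fell was 3 when siNC replicate 1 or 2 was left out, and under the offset 8 rose, where 23.7% of all genes did. Against siNC replicate 3 alone, 1 rose and 0 fell, where 13.8% of all genes were called.

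Of 8 tested genes for DNA removal and cGAMP breakdown, 2 rose and 3 fell, 62.5% against 40.8% of all tested genes, with a median log2 fold change of -0.13. SAMHD1, which breaks down deoxynucleotides, rose (0.45, adjusted p = 0.000554), as did SMPDL3A (0.70, adjusted p = 9.87e-05), which degrades cGAMP outside the cell. RNASEH2B, a subunit of the enzyme that cuts RNA in DNA hybrids, fell (-0.48, adjusted p = 0.00141), as did BANF1 (-0.47, adjusted p = 0.00358), a chromatin protein that limits cGAS. Both lost their calls in unfiltered log2(FPKM + 1) (limma adjusted p = 0.0630 for RNASEH2B and 0.0612 for BANF1). The changes of BANF1 and SAMHD1 were smaller in size against siNC replicate 3 alone, at -0.23 and 0.34. ENPP1, the main cGAMP hydrolase, fell by 0.20 on the log2 scale (adjusted p = 0.0414), a call lost when any library but siSF3B6 replicate 3 was left out, with adjusted p of 0.0503 to 0.156; with the offset it was -0.36. Of 22 tested regulators of STING or cGAS, 3 rose and 5 fell, 36.4% against 40.8% of all tested genes, with a median of 0.031. IFI16, a nuclear DNA sensor that works with STING, had 166, 175 and 201 CPM in siSF3B6, against 126, 129 and 129 CPM in siNC (0.50, SE 0.0845, adjusted p = 0.000472). ZDHHC7, which attaches palmitate to STING, and TRIM32, which ubiquitinates it, each rose by 0.39 (adjusted p = 0.00181 and 0.00481), while RNF5, which marks STING for degradation (-0.51, adjusted p = 0.000632), and NLRX1, which holds it back (-0.55, adjusted p = 0.00126), fell. The others that fell, named after their values were seen, were ZDHHC3, which like ZDHHC7 attaches palmitate to STING (-0.31, adjusted p = 0.00521), INSIG1 (-0.21, adjusted p = 0.0384) and ARF1 (-0.26, adjusted p = 0.0443). ZDHHC3 lost its call against siNC replicate 3 alone (adjusted p = 0.0884), INSIG1 without siSF3B6 replicate 1 or 2 or siNC replicate 1 or 2 (0.106 to 0.178), and ARF1 with the offset (0.112) and without any single library other than siNC replicate 3 (0.051 to 0.132). With the offset IFI16 came to 0.29 and NLRX1 to -0.32, both still called. In this list the number lower was 3 without siSF3B6 replicate 1 or 2 or siNC replicate 1 or 2. The number higher was 5 without siSF3B6 replicate 3 and 7 with the offset. Against siNC replicate 3 alone the rise of TRIM32 was 0.33. There the 5 that fell in the main test had -0.41 (RNF5), -0.49 (NLRX1), -0.33 (ZDHHC3), -0.16 (INSIG1) and -0.21 (ARF1). STAT2, USP18, SOCS1 and IKBKE were named after their values were seen.

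Of 13 tested targets of IRF3 and type I interferon, 7 rose and 2 fell, and of 9 tested targets of interferon gamma, 6 rose and 1 fell; the medians were 0.49 and 0.27. These are 53.8% higher and 15.4% lower for the IRF3 and type I targets and 66.7% higher and 11.1% lower for the gamma targets, against 20.8% and 20.0% of all tested genes. The share of all tested genes called higher varied with GC content. It was 36.4% under 40% GC and 31% at 40 to 45% GC, where GBP1, GBP2, GBP4, GBP5 and CXCL10 lie. For MX1, OAS1 and CCL5, at 48.2% to 53.3% GC, it was 14.8% to 21.1%. The summed level of the IRF3 and type I targets ran the other way, at 1254.3 to 1266.5 CPM in siSF3B6 and 1266.6 to 1345.9 CPM in siNC. The 2 most abundant genes of the list, both named after their values were seen, did not pass the test. IFIT3 averaged 305 CPM in siSF3B6 and 349 CPM in siNC (-0.19, adjusted p = 0.108). ISG15 averaged 279 CPM in siSF3B6 and 332 CPM in siNC (-0.25, adjusted p = 0.0605). These 2 values also moved with the GC and length offset. ISG15, at 63.4% GC, came to 0.0065 (edgeR adjusted p = 0.931). IFIT3, at 44.3% GC, came to -0.27 and was then called lower (edgeR adjusted p = 0.00439). The guanylate-binding proteins GBP1 and GBP2 rose by 0.72 and 0.69 (adjusted p = 8.34e-05 and 3.22e-05), GBP5 by 0.78 and GBP4 by 0.27. GBP4 lost its call with the offset (0.11, adjusted p = 0.158) and without siSF3B6 replicate 1 (0.0703), siNC replicate 1 (0.06) or siNC replicate 2 (0.0833). CIITA, the gene that fell, switches on MHC class II genes; its log2 fold change was -0.33 (adjusted p = 0.0479), with adjusted p of 0.0609 to 0.192 without any single library other than siNC replicate 3. Without siSF3B6 replicate 1, or with libraries scaled by size alone, 3 of the gamma targets rose, and 2 against siNC replicate 3 alone, where 6.60% of all genes did. Among the IRF3 and type I targets, the chemokines CXCL10 (1.43, adjusted p = 4.90e-05) and CCL5 (1.25, adjusted p = 0.000213) rose along with MX1 (1.39) and OAS1 (1.70), while OASL fell by 0.87 on the log2 scale (adjusted p = 1.17e-05). IFIT1, named after its value was seen as the other that fell, had -0.21 (adjusted p = 0.0497), with adjusted p of 0.079 to 0.17 without any single library other than siSF3B6 replicate 3. Without siSF3B6 replicate 1, siNC replicate 1 or siNC replicate 2, 1 of these targets fell.

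**Figure D5:**
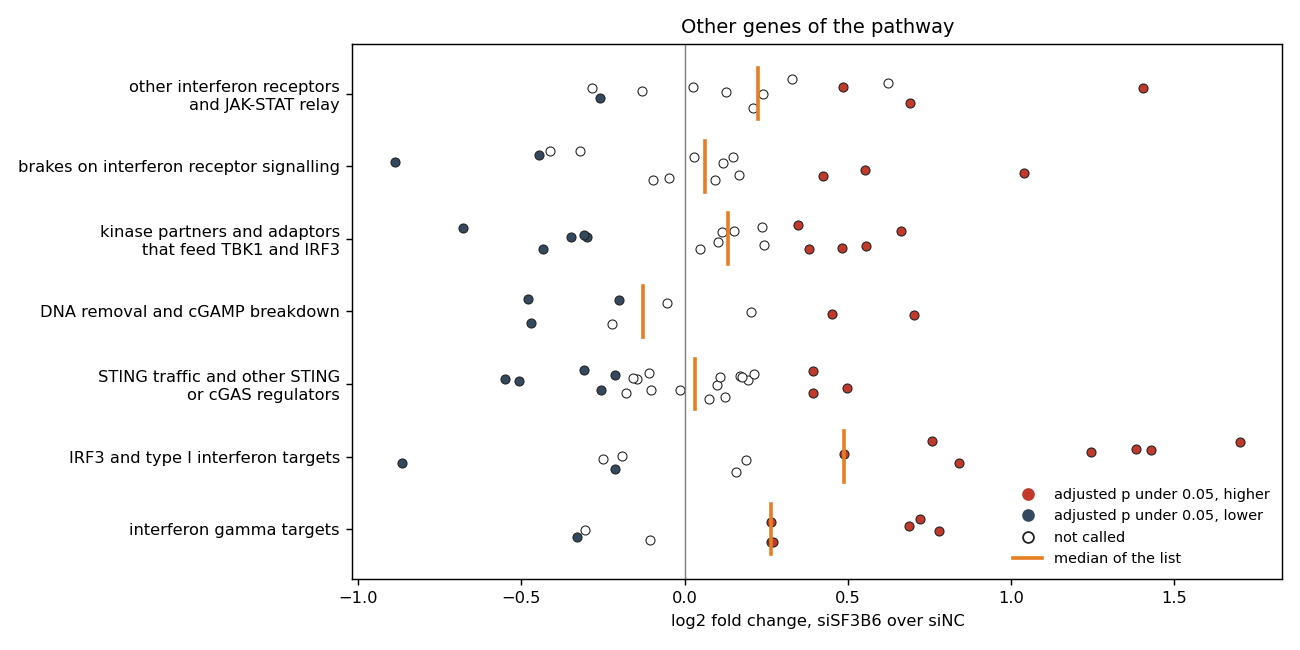
Log2 fold change, siSF3B6 over siNC, of the tested genes in 7 lists around the receptors and cGAS-STING, 1 point a gene. Filled points have an adjusted p under 0.05, open points do not, and orange lines mark list medians, which run from -0.13 for DNA removal and cGAMP breakdown to 0.49 for the IRF3 and type I targets.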

How the data were processed

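The authors deposited raw whole-number read counts for 39323 genes and FPKM (fragments per kilobase of gene model, scaled by depth) for 39210 genes. Per the submitters' processing notes, HISAT2, DESeq2 and hg38 were used, without versions or roles; no source used here names the counter, its strand setting or the annotation. Columns were matched to the sample titles; the cell line field of the labels differs between samples and was not used.

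The main test was edgeR 4.0.16 (R 4.3.3): filterByExpr, TMM factors, glmQLFit and glmQLFTest on group, Benjamini-Hochberg over 16869 genes, threshold 0.05. SE is log2 fold change over root F. Groups and numbers came from the titles. Depth was 28504091 to 38546037 reads per library; PCR reads are not independent molecules. Alternatives used DESeq2 1.42.0, limma 3.58.1 (log2(FPKM + 1) and log2(FPKM + 0.1), at least 0.5 mean FPKM or no filter), other scalings, filters, a replicate block, robust dispersion, left-out libraries and a lowess offset (span 0.3) on GC content and length, known for 98.8% of tested genes from GENCODE 29. Coordinates, transcripts and overlaps are from GENCODE 29 on GRCh38, promoters from RefSeq on GRCh38.p14.

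In simulated counts for this comparison, in 16657 genes, recovery was 24% at a 1.25-fold change, 70% at 1.5-fold, 96% at 2-fold and 100% at 4-fold, with 7 false calls. The simulation changed 50 genes at each fold, far fewer than the 40.8% called in the data. It drew genes independently, without the GC trend and the shared differences among libraries described above. Recovery and false calls in the real libraries may therefore differ.

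The genes and the lists (9 around the pathway and 3 of cell markers) were chosen with earlier results of these data known. Named were the 10 genes, SF3B6, in each list up to 5 called genes by size of change (mean of 1 CPM or more), and the 3 genes most like the one that changed most. Some items are not reported here.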

Additional observations from a re-analysis of the deposited data

How the results depend on the processing

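Over 21 alternatives, 190 of 210 values of the 10 genes kept their direction and their side of the threshold. Between 4 and 5 genes were higher and 1 to 4 lower, except against siNC replicate 3 as lone control, where 2 were higher and 1 lower. The calls of TBK1, IFNGR1 and IRF3 held under all 21. The sign turned for IFNAR2 without siSF3B6 replicate 1 (0.0064) and with the lone control (0.0403), and for TYK2 with the GC and length offset (0.022) and with the offset and a replicate block (0.022); the value without siSF3B6 replicate 1 was the highest and that without siNC replicate 3 the lowest (-0.094) of those for IFNAR2 with 1 library left out. None of the 4 passed the threshold. Leaving out single libraries gave 5044 to 7571 calls over all genes against 6889, with 2503 to 3881 higher and 2503 to 3690 lower, 4 higher and 1 to 3 lower of the 10 genes, and 26 to 34 higher and 12 to 24 lower of the pathway lists, against 32 and 21. With the lone control, whose spread is taken to equal that of siSF3B6, 2471 genes were called, 1178 higher and 1293 lower, and 17 and 5 of the lists. Unfiltered log2(FPKM + 1) gave 3817 calls, 1561 of them higher, and 19 higher of the lists; the cause was not tested. The libraries numbered 1 and 2 alone gave 9470 calls. Scaling by library size alone shifted the all-gene median by -0.10 and gave 2459 higher and 4558 lower calls. Same-numbered libraries share only a number: their deviations correlated at 0.033, 0.102 and 0.123 for numbers 1 to 3. With the replicate number as a block 8052 genes were called, and JAK1 (0.16, adjusted p = 0.037) and TYK2 (-0.18, adjusted p = 0.0287) passed. Among the other named genes 24 of 48 calls were lost with the lone control, 16 with unfiltered log2(FPKM + 1) and 10 or fewer with each of the others. Depth limits the interferon ligands, which had 5 reads or fewer in each library.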

Other observations

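IFNAR1, IFNAR2 and IFNGR2 are neighbours. IFNAR2, IL10RB, IFNAR1 and IFNGR2 lie in that order, all on the plus strand, within 33229901 to 33479348 of chromosome 21. Of 13 tested genes listed in and around this block, 3 rose and 2 fell, 38.5% against 40.8% of all tested genes, with a median log2 fold change of 0.14. Against siNC replicate 3 alone 0 were called in edgeR's test (adjusted p = 0.0513 for SON, 0.124 for GART, 0.165 for ATP5PO, 0.246 for SYNJ1 and 0.73 for MRPS6). SON, a splicing co-factor of nuclear speckles, rose, with 208 ± 17.5 CPM in siSF3B6 and 147 ± 7.39 CPM in siNC (SD, n = 3 each; 0.50, edgeR adjusted p = 0.000412), as did SYNJ1 (0.43, adjusted p = 0.0101, or 0.0551 without siNC replicate 2; 0.27 with the offset) and MRPS6 (0.24, adjusted p = 0.045). The purine synthesis gene GART fell by 0.28 on the log2 scale (adjusted p = 0.0093, or 0.0622 without siNC replicate 1), and ATP5PO, a subunit of the ATP synthase, by 0.42 (adjusted p = 0.00329). MRPS6 lost its call with the GC and length offset (0.074, adjusted p = 0.363) and without any single library other than siNC replicate 3, with adjusted p of 0.0542 to 0.21. Without siNC replicate 2, 1 of these neighbours rose; without siSF3B6 replicate 3 or with the offset, 4 fell, and without siNC replicate 1, 1 fell.

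Over the 6 libraries, the genes whose log2 CPM was most like that of TBK1, among 11298 others of at least 5 CPM, were MAP3K2 (Pearson's r 0.9996), RSBN1 (0.9995) and TNKS2 (0.9995). These r values are a description over 6 libraries in 2 groups and carry the difference between the groups. MAP3K2, a kinase of the MAP kinase cascade, had 49.3, 47.1 and 59.3 CPM in siSF3B6, against 31.4, 30.9 and 33.5 CPM in siNC. Like TBK1, at 39.3% GC, their transcripts are 35.4%, 38.7% and 42.5% GC, and their log2 fold changes of 0.70, 0.97 and 0.64 were 0.47, 0.75 and 0.48 with the GC and length offset.

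Among the marker lists, EPCAM, an epithelial adhesion molecule, rose (log2 fold change 1.09, edgeR adjusted p = 4.03e-06). It averaged 22.8 ± 1.09 CPM in siSF3B6 and 10.7 ± 0.711 CPM in siNC (SD, n = 3 each). CDH1 (0.56) and GATA3 (0.50) rose with it. The luminal list had 4 tested genes of 6, and these 3 are 75.0% of them, against 20.8% of all tested genes called higher. ERBB2, the most abundant of the list, did not pass (-0.077, edgeR adjusted p = 0.602). ESR1 and PGR had too few reads to be tested. The rise of GATA3 was smaller against siNC replicate 3 alone, at 0.34 where all libraries gave 0.50. Of the blood and stromal markers CD68 rose by 0.71, PTPRC, described above, by 1.04, and PECAM1 and PDGFRB fell by 0.34 and 0.49 on the log2 scale, each below 10 CPM. CD68 lost its call without any single library other than siNC replicate 3 (adjusted p = 0.0772 to 0.158), PECAM1 without siSF3B6 replicate 1 or 3 or siNC replicate 1 or 2 (0.071 to 0.121) and PDGFRB without siNC replicate 1 (0.063). The part of these markers in the changes of the receptor and cGAS-STING genes was not tested.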
